A study of Mus musculus with 24 samples.

Results

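The mid-rest step is the change in the VTA transcriptome between ZT4 and ZT8, in the middle of the light phase, when mice mostly rest. It was read from the 4 arrays labelled ZT8 and the 4 arrays labelled ZT4, 8 of the 24 arrays of a diurnal series, chosen by these labels alone. The other 16 arrays, 4 each at ZT0, ZT12, ZT16 and ZT20, entered the fit for the shared estimate of the spread between mice and served for the course over the day and the comparison with other steps. Both groups were male C57BL/6N wild-type mice aged 10 to 12 weeks, kept on chow and water ad libitum in a cycle of 12 h light and 12 h dark, with lights on at ZT0 and off at ZT12. By the labels, time of day was the only difference between them. The VTA (ventral tegmental area) was punched from brain slices, and each array holds the RNA of 1 punch. A punch holds dopamine neurons together with other neurons, glia and vessels, so fewer cells of a type and less RNA per cell cannot be told apart. Expression values are log2 RMA values, that is, background-corrected, quantile-normalised probe intensities summarised to 1 value per probe set, and a difference of 1 on this scale is a 2-fold difference.

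The VTA is the origin of the mesolimbic dopamine pathway, which is known for its part in reward and motivation. Its cells, like most cells of the body, hold a molecular clock in which CLOCK and BMAL1 (Arntl) activate their own repressors, the period and cryptochrome genes, and the REV-ERB receptors Nr1d1 and Nr1d2 repress Arntl in turn. Further genes follow time of day through glucocorticoid hormone, body temperature, feeding and sleep. In nocturnal rodents glucocorticoid and body temperature are low in the early light phase and climb towards dusk. The comparison of ZT8 with ZT4 asks which of these programmes, if any, had moved between both time points.

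No transcript passed the test. Of 23410 transcripts (probe sets with an annotated gene), 0 were called at a Benjamini-Hochberg adjusted p under 0.05 in limma, 0% of those tested, and the smallest adjusted p was 1. At an unadjusted p under 0.05 there were 350 (1.50%), of which 214 (0.914%) were higher at ZT8 and 136 (0.581%) lower. The 1.50% is below the share of 0.05 that this cut-off gives when no transcript differs. All 4 ZT8 arrays lay above all 4 ZT4 arrays for 265 transcripts (1.13%), and below them for 144 (0.615%), or 1.75% together. Groups of 4 can also separate by chance, so a lack of overlap is a description here and below. The methods' t-test, which the study used for data other than the arrays, gave 684 transcripts at an unadjusted p under 0.05 and 0 after adjustment when run on the 8 arrays. The largest differences were 0.42 above and -0.51 below 0 on the log2 scale, so that no transcript differed by 1.5-fold or more. The median absolute difference was 0.052, against a median standard error of 0.093.

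What the 8 arrays allow is seen in the 95% confidence intervals of the differences. The whole interval lay within 1.2-fold in either direction for 13429 transcripts (57.4%), within 1.5-fold for 23265 (99.4%) and within 2-fold for 23408. Changes of 2-fold or more were thus outside the interval for all but 2 transcripts. For the transcripts beyond the 57.4%, the interval reached 1.2-fold or more. These intervals are not adjusted for the number of transcripts. The adjusted test did not call the largest difference either, which was 1.42-fold, so 0 calls do not exclude changes above 1.2-fold. The direction of the small counts depended on scaling. With array medians centred there were 171 transcripts higher and 200 lower at an unadjusted p under 0.05, with a further quantile normalisation 213 higher and 199 lower, and without ZT4 replicate 2 there were 132 higher and 162 lower. For groups without overlap the split was 214 above and 192 below after centring. Without ZT4 replicate 4 the count at an unadjusted p under 0.05 was 650, and none of these was called after adjustment either.

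**Figure D1:**
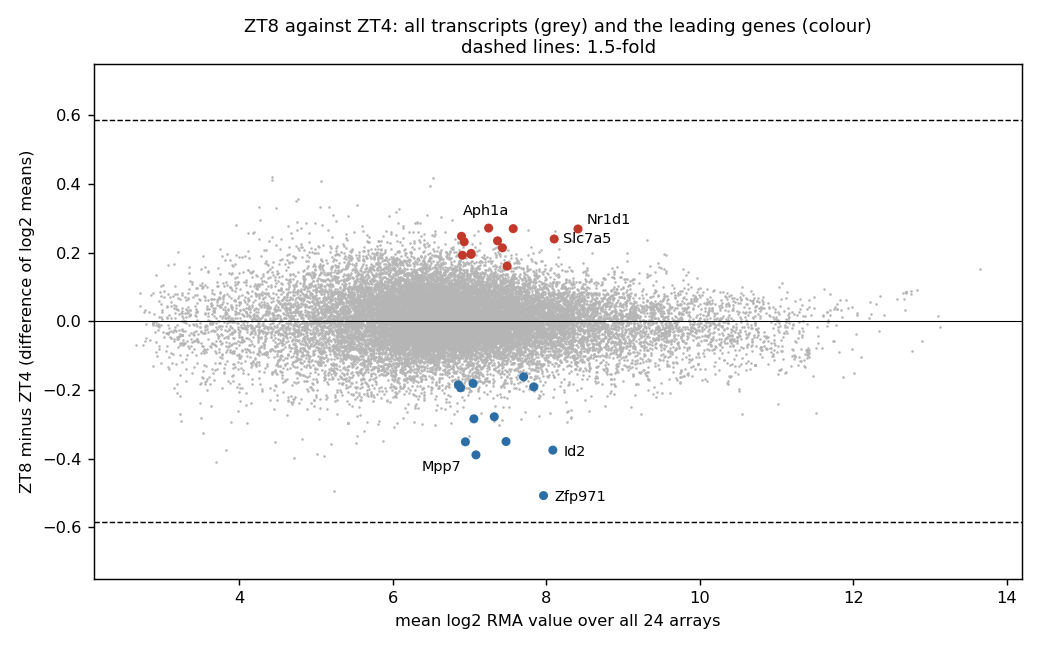
Difference between the ZT8 and ZT4 means (vertical axis, log2 units) against the mean log2 RMA value over all 24 arrays (horizontal axis) for 23410 transcripts. Grey points are transcripts, coloured points are the 24 leading genes (red higher, blue lower at ZT8), and all points lie inside the dashed lines at 1.5-fold.

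To show what the step looks like gene by gene, the 12 genes in each direction with the smallest p among genes expressed above the median level (6.76) are described as leading genes. They were chosen for this difference, so their values are a description and none of them passed the adjusted test. The 12 higher at ZT8 differed by 0.16 to 0.27 on the log2 scale (1.12- to 1.21-fold), and the 12 lower by -0.51 to -0.16 (1.12- to 1.42-fold). The 4 arrays of each time did not overlap for 8 of the higher and 5 of the lower genes.

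Aph1a, a subunit of the gamma-secretase complex that cuts proteins within the membrane, had the smallest p of all transcripts. Its log2 values were 7.45, 7.43, 7.37 and 7.46 in the ZT8 arrays, against 7.09, 7.08, 7.12 and 7.33 in the ZT4 arrays. The groups did not overlap, and the difference was 0.27 ± 0.07 (moderated SE; unadjusted p = 0.000864, adjusted p = 1, limma). A second Aph1a probe set differed by 0.23 with an unadjusted p of 0.00305 in the same limma fit. Tprn, which encodes taperin, a protein known from the base of hair cell stereocilia, stood at 7.04, 7.04, 7.04 and 7.05 at ZT8 and at 6.74, 6.85, 6.91 and 6.68 at ZT4. Its 4 ZT8 arrays were nearly identical, and most of the spread was at ZT4. Pex16, a factor of peroxisome membrane assembly, averaged 7.67 ± 0.08 at ZT8 and 7.40 ± 0.16 at ZT4 (SD, n = 4 each), with ZT4 replicate 4 at 7.593 and ZT8 replicate 4 at 7.591.

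The clock repressor Nr1d1 (REV-ERB alpha), a haem-binding nuclear receptor, was also among the genes higher at ZT8. It measured 8.81, 8.74, 8.73 and 8.55 in the ZT8 arrays, against 8.32, 8.34, 8.50 and 8.58 in the ZT4 arrays. Only the lowest ZT8 array and the highest ZT4 array crossed, and the difference was 0.27 ± 0.08 (unadjusted p = 0.00371, adjusted p = 1, limma). Bhlhe40 (DEC1), a repressor that competes with CLOCK and BMAL1 for E-boxes, had 7.54, 7.64, 7.54 and 7.62 at ZT8 and 7.35, 7.44, 7.29 and 7.32 at ZT4. Its arrays did not overlap, with a difference of 0.23 ± 0.08. Slc7a5, the light chain of the LAT1 transporter that carries large neutral amino acids including the precursors of dopamine, gave 8.20, 8.31, 8.09 and 8.06 at ZT8, against 7.73, 7.96, 7.99 and 8.03 at ZT4. The lowest ZT8 array lay just above the highest ZT4 array, and the difference was 0.24 ± 0.08.

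Zbtb16 (PLZF), a zinc finger transcription factor known to be induced by glucocorticoids, averaged 7.42 ± 0.04 at ZT8 and 7.21 ± 0.15 at ZT4 (SD, n = 4 each). Apln, the peptide ligand of the apelin receptor, averaged 7.10 ± 0.10 at ZT8, against 6.90 ± 0.11 at ZT4. Both overlapped in 1 array or more. Non-overlapping groups with differences of 0.16 to 0.23 were also seen for Cpq (a secreted carboxypeptidase), Med16 (a Mediator subunit), Ankrd24 (an ankyrin repeat protein) and Rfxap (a subunit of the RFX complex at class II histocompatibility promoters). Of the 12 leading genes higher at ZT8, 7 had their highest mean of the day at ZT8 and 8 had their lowest at ZT4. Choosing genes by the difference of these times favours such ranks, so these counts are a description only.

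Among the genes lower at ZT8, Id2 had the smallest p. Id2 is a helix-loop-helix protein without a DNA-binding region, which holds other factors of that family away from DNA. It measured 8.04, 8.20, 8.05 and 8.05 in the ZT8 arrays, against 8.52, 8.59, 8.41 and 8.33 in the ZT4 arrays. The groups were clearly apart, with a difference of -0.38 ± 0.10, or 0.771-fold (unadjusted p = 0.00101, adjusted p = 1, limma). Zfp971, a zinc finger gene, showed the largest difference of all transcripts, -0.51 ± 0.19. Its ZT8 arrays were tight at 7.77, 7.86, 7.68 and 7.90, whereas its ZT4 arrays spread over 8.37, 8.91, 8.04 and 7.92, so that the size rested largely on replicates 1 and 2 of ZT4.

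Mpp7, a scaffold protein of cell junctions, behaved likewise, with 6.85, 6.66, 6.86 and 7.05 at ZT8, against 7.55, 7.53, 6.94 and 6.95 at ZT4. Its second probe set differed by only -0.06. The olfactory receptor gene Olfr745 was lower without overlap, at 7.05, 7.50, 7.33 and 7.44 in ZT8 arrays and 7.67, 7.67, 7.78 and 7.63 in ZT4 arrays. Rprd1a, which binds the tail of RNA polymerase II, averaged 7.76 ± 0.11 at ZT8 and 7.95 ± 0.09 at ZT4 (SD, n = 4 each). It did not overlap either, and the same held for Gm9909. For Ccdc141, a coiled-coil protein, the probe set named here differed by -0.28, while its 4 other probe sets ranged from -0.12 to 0.08. The remaining leading genes were Tmem209 (a nuclear envelope protein), Josd1 (a deubiquitinase), Rgmb (a co-receptor for bone morphogenetic proteins), Gm4787 and Fbxo8 (an F-box protein), which differed by -0.35 to -0.16 with at least 1 array crossing. Of the 12 genes lower at ZT8, 10 had their lowest mean of the day at ZT8 and 6 had their highest at ZT4. These ranks too are favoured by the choice of the genes and show no trough or peak by themselves.

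**Figure D2:**
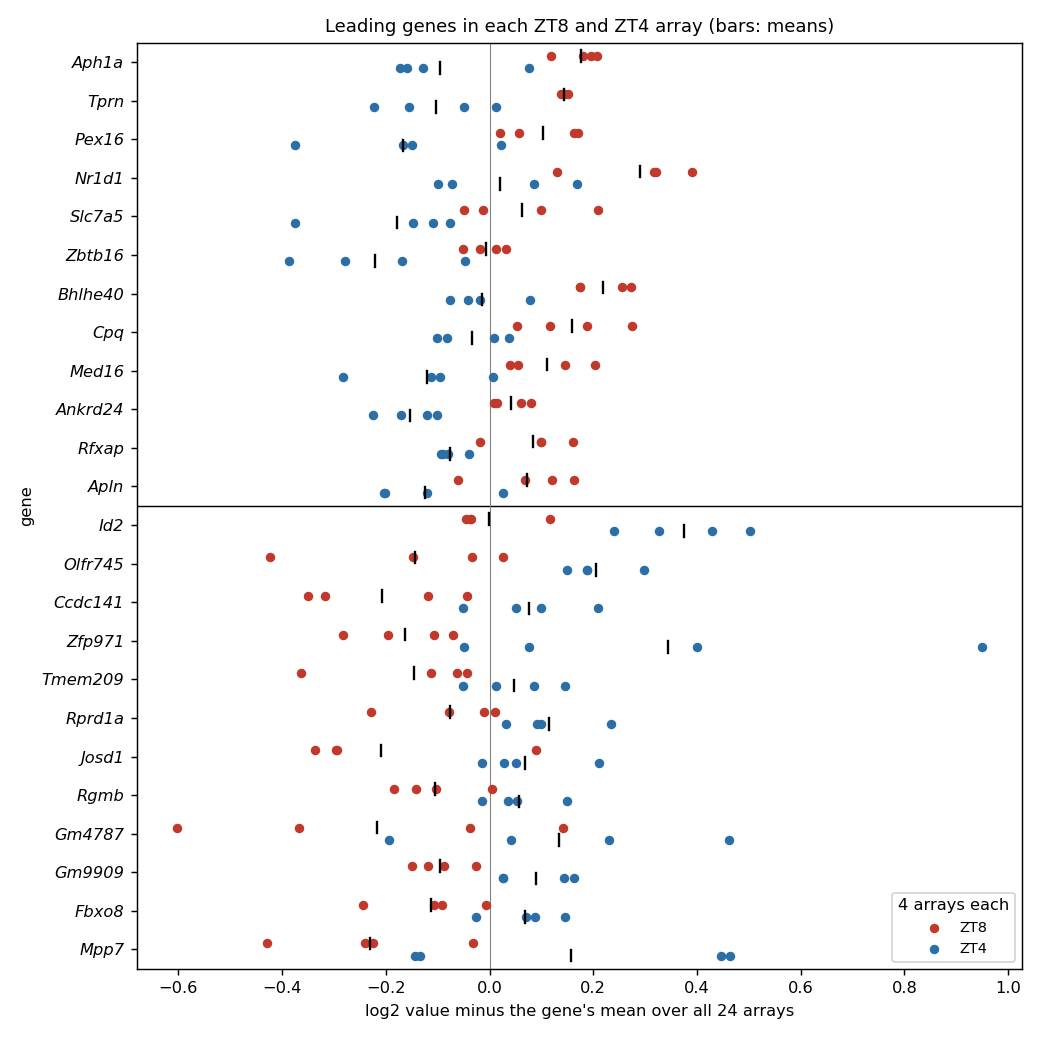
Log2 values of the 24 leading genes in each array, given as the value minus the gene's mean over all 24 arrays (horizontal axis), with ZT8 (red) above ZT4 (blue) in each row, 4 arrays each, and short bars at the group means. The 12 genes in the upper block were higher and the 12 in the lower block lower at ZT8, and 13 of the 24 show no overlap between times.

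Genes of the molecular clock mostly had slightly higher means at ZT8. Of 19 genes of the clock loop, 16 were measured, and 12 of these had a higher mean at ZT8 and 4 a lower one. Their median difference was 0.07, beside 0.01 for all transcripts, of which 12351 (52.8%) were above 0, and with 1 array left out in turn it lay between 0.04 (without ZT4 replicate 2) and 0.11 (without ZT4 replicate 1). No clock loop gene was called, and 2 (Nr1d1 and Bhlhe40) were at an unadjusted p under 0.05. Averaged over the 16 genes, the 4 ZT8 arrays measured 7.51 to 7.55 and the 4 ZT4 arrays 7.40 to 7.49, without overlap. No other of the 22 gene lists, and none of the 15 marker lists, had arrays without overlap. These averages include Nr1d1 and Bhlhe40, which were chosen for this difference. With this many lists examined, a list can separate by chance, so the separation is a description. The count of 12 stayed at 12 of 16 after centring and after the further quantile normalisation, and lay between 11 and 13 when each array was left out in turn.

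The differences varied among the repressors. Per3, which belongs to the period genes, was at 6.63, 6.61, 6.73 and 6.62 at ZT8, against 6.58, 6.53, 6.45 and 6.48 at ZT4, a difference of 0.13 ± 0.07 without overlap (unadjusted p = 0.0669, limma). Per1 and Per2 differed by 0.07 each, with overlapping arrays. Cry1 averaged 7.42 ± 0.08 at ZT8 and 7.31 ± 0.06 at ZT4 (SD, n = 4 each), a difference of 0.12. Ciart (CHRONO), a repressor that binds BMAL1, differed by 0.19 ± 0.10, and by 0.27 at its second probe set. Nr1d2, the partner of Nr1d1, differed by 0.08. On the activator side, Arntl averaged 6.93 ± 0.07 at ZT8 and 6.94 ± 0.05 at ZT4, and the 95% interval of its difference reached from -0.15 to 0.14. Clock differed by -0.06 and the activating receptors Rora and Rorb by 0.02 and -0.07. Csnk1d, a kinase of the period proteins, differed by 0.16, and Csnk1e by 0.07.

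Downstream of the loop lie the PAR bZIP factors Dbp, Tef and Hlf, which bind D-boxes, and their rival Nfil3. Dbp was the leading one, with 7.22, 7.15, 7.26 and 7.13 at ZT8 and 7.12, 6.92, 7.08 and 6.82 at ZT4. The arrays of both times did not overlap, though the gap was under 0.01, and the difference was 0.21 ± 0.08 (unadjusted p = 0.0203, adjusted p = 1, limma). Hlf gave 8.01, 8.12, 8.10 and 7.96 at ZT8, against 7.96, 7.95, 7.86 and 7.84 at ZT4, also without overlap. Tef differed by 0.08, the deubiquitinase Usp2 by 0.09 and Nfil3 by -0.08. Of the 8 clock output genes 7 were above 0 with a median of 0.05, and 5 of 8 were above 0 after centring or the further quantile normalisation, since Pdk4 and Wee1 lay within 0.01 of 0.

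Start windows of the clock genes are shown because the loop acts through short motifs there. The letters searched, on both strands of the 250 bases before the gene start in RefSeq (GRCm38.p6), were the E-box CACGTG, the D-boxes TTATGTAA and TTATGCAA, the short sites AGGTCA (ROR receptors) and AGAACA (glucocorticoid receptor), the cAMP response element TGACGTCA, the heat shock core GAANNTTC and the sterol response element TCACCCCAC. E-boxes stood in 6.05% of 27025 such windows, in 5 of the 19 clock loop and output genes with a window (Per1, Cry1, Bhlhe41, Ciart and Tef) and in 0 of the 17 leading genes with one. Ciart held 3, which start 116, 58 and 44 bases before the gene start. Per3 held the D-box TTATGTAA at 205 and 158 bases before the start, a motif found in 0.862% of windows, and the only leading gene with it was Gm4787. In Nr1d1 none of these motifs was in the window. The windows below run 5′ to 3′ on the minus strand, with E-boxes and D-boxes in capitals, at chr3:95882229-95882478 for Ciart, chr4:151044666-151044915 for Per3 and chr11:98775378-98775627 for Nr1d1. A match is a description of the letters only.
Ciart: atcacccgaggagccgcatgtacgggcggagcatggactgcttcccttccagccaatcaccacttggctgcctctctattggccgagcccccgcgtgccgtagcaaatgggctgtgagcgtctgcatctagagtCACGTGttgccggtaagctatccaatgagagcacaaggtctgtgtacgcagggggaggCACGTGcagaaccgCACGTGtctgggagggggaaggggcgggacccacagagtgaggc
Per3: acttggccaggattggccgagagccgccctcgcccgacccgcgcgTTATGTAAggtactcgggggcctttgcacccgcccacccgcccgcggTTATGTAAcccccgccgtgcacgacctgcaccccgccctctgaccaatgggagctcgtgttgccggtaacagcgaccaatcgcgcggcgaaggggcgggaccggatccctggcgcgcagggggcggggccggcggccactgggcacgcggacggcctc
Nr1d1: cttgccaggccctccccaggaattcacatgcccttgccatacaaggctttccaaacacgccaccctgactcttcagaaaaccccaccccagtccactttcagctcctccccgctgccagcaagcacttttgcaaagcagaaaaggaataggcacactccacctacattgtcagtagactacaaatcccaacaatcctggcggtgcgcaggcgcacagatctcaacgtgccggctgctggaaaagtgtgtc

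Over the whole day these genes followed several courses. Nr1d1 means were 8.22, 8.44, 8.70, 8.59, 8.35 and 8.19 from ZT0 through ZT20 in steps of 4 h, with the highest at ZT8. For Dbp the means were 6.89, 6.99, 7.19, 7.34, 7.18 and 7.03, and for Slc7a5 7.91, 7.93, 8.17, 8.31, 8.23 and 8.08, both highest at ZT12. Id2 ran the other way, with 8.15, 8.46, 8.09, 7.87, 7.92 and 8.04, highest at ZT4 and lowest at ZT12. Aph1a had another shape, since its means at all times other than ZT8 lay between 7.15 and 7.28. Per1, Per2, Per3, Cry1 and Tef had their lowest mean of the day at ZT4.

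**Figure D3:**
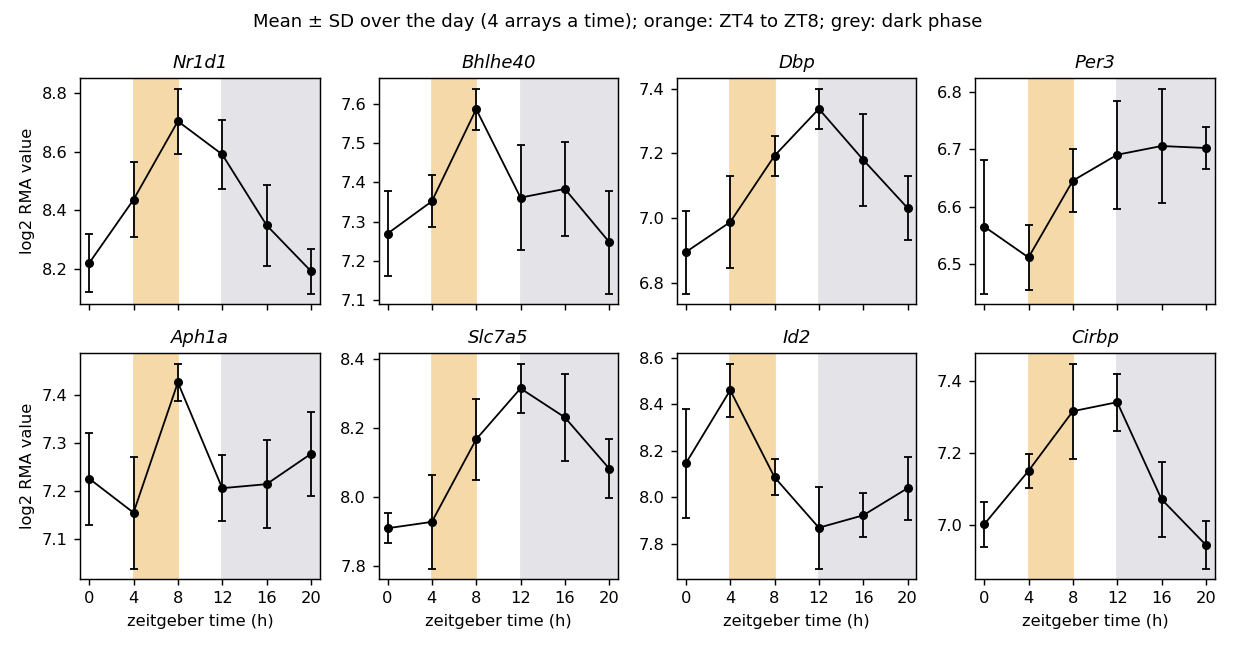
Mean log2 RMA value ± SD of 4 arrays (vertical axis, not starting at 0) at each zeitgeber time (horizontal axis, h) for 8 genes, with the interval from ZT4 to ZT8 in orange and the dark phase in grey. Nr1d1, Bhlhe40 and Aph1a are highest at ZT8, Dbp, Slc7a5 and Cirbp at ZT12, Per3 is lowest at ZT4 and Id2 is highest at ZT4.

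Genes induced by glucocorticoid hormone also had mostly higher means at ZT8. Of 18 measured genes 14 were above 0 and 4 below, beside 52.8% of all transcripts above 0. Per1 and Pdk4 among them are also counted in the clock lists. The median difference was 0.06. When each array was left out it lay between 0.04 (without ZT4 replicate 1) and 0.10 (without ZT8 replicate 2). None of the 18 was called. In limma 3 were at an unadjusted p under 0.05, beside 1.50% of all transcripts, or 1 after centring, when 13 of the 18 were above 0. These were Zbtb16, the metal-binding metallothionein Mt1 (0.16 ± 0.07) and Klf9, a Krüppel-like transcription factor. Klf9 was at 7.347, 7.289, 7.397 and 7.300 in the ZT8 arrays, against 7.255, 7.046, 7.291 and 7.041 in the ZT4 arrays, so that ZT8 replicate 2 and ZT4 replicate 3 crossed by a hair. The kinase Sgk1, named here after its values were seen, differed by 0.22 ± 0.11. Fkbp5, a chaperone that dampens the glucocorticoid receptor, differed by 0.04 and Tsc22d3 (GILZ) by -0.03. Averaged over the list, the ZT8 arrays measured 7.11 to 7.19 and the ZT4 arrays 7.01 to 7.11, and they overlapped.

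Both cold-inducible RNA-binding proteins had higher means at ZT8, each by 0.17. Cirbp measured 7.45, 7.40, 7.17 and 7.24 at ZT8 and 7.13, 7.10, 7.20 and 7.17 at ZT4 (unadjusted p = 0.0301, adjusted p = 1, limma). Replicates 1 and 2 of ZT8 stood above the rest, and replicate 3 lay within the ZT4 range. Rbm3 was at 9.73, 9.68, 9.17 and 9.66 at ZT8, against 9.39, 9.51, 9.34 and 9.32 at ZT4, and its replicate 3 at ZT8 was the lowest of the 8 arrays. Unlike Cirbp, it was not at an unadjusted p under 0.05 in limma. At other Rbm3 probe sets the difference was 0.13 (unadjusted p = 0.294, limma) and 0.12 (unadjusted p = 0.275, limma).

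Heat shock genes, which encode chaperones of the cytosol and mitochondria, lay on the other side. Of 18 measured genes 17 had a lower mean at ZT8 and 1, the co-chaperone Dnajb1, a higher one, with a median difference of -0.06. The same 17 to 1 split was found after centring and after the further quantile normalisation, and with 1 array left out in turn 12 (without ZT4 replicate 2) to 17 genes were below 0, with medians of -0.08 to -0.04. No member was called, and only Cryab, a small heat shock protein abundant in glia, was at an unadjusted p under 0.05. Cryab had 8.85, 9.17, 9.01 and 9.23 at ZT8, against 9.44, 9.30, 9.40 and 9.21 at ZT4, and 1 array of each time overlapped. The abundant chaperones Hspa8 and Hsp90aa1 differed by -0.06 each, and the list's mean per array was 8.99 to 9.13 at ZT8 and 9.04 to 9.19 at ZT4.

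Several other lists also leaned to 1 side. Taken over all 22 lists, 13 of 513 measured genes (2.53%, beside 1.50% of all transcripts) were at an unadjusted p under 0.05, 9 higher and 4 lower, and 0 were called. Both shares are below the 0.05 of the cut-off itself. Transfer RNA synthetases and the amino acid response, to which Slc7a5 belongs, were above 0 in 22 of 27 genes, with a median of 0.04. Glycolysis genes were above 0 in 14 of 17 and proteasome subunits in 29 of 38, with medians of 0.04 each, and no member of either was at an unadjusted p under 0.05. Oxidative phosphorylation was above 0 in 50 of 73 genes, with a median of 0.02 and 1 member, the complex I subunit Ndufa11, at an unadjusted p under 0.05. After centring, those above 0 were 20 of 27 transfer RNA synthetase, 12 of 17 glycolysis, 25 of 38 proteasome and 45 of 73 oxidative phosphorylation genes. The share of all transcripts above 0 was then 46.5%. With the further quantile normalisation they were 21, 14, 31 and 57, beside 50.9%. Averaged over each of these lists, the ZT8 and ZT4 arrays overlapped. Ribosomal protein genes had a median of 0.01 over 55 genes and splicing factors one of -0.01 over 33. The immediate early genes, which mark recent neuronal activity, were split into 11 above and 10 below 0. Cholesterol synthesis had 13 of 20 genes below 0, with a median of -0.01. Fdft1 (squalene synthase) was lower at an unadjusted p of 0.0456 in limma, while its second probe set differed by -0.04 (unadjusted p = 0.643, limma). Genes for chaperones of the endoplasmic reticulum were below 0 in 14 of 23, and none of the 23 was at an unadjusted p under 0.05 in limma. Only 1 of them, Calr (calreticulin), had no overlap, beside 1.75% of all transcripts. Calr was at 8.31, 8.43, 8.46 and 8.43 at ZT8 and 8.52, 8.53, 8.49 and 8.53 at ZT4. Interferon-induced genes were below 0 in 9 of 15, with a median of -0.04. The lowest median, -0.11, was that of the mitochondrially encoded genes, of which only ND3 (a complex I subunit, -0.16, and -0.27 at its second probe set) and COX2 (a subunit of cytochrome oxidase, -0.06) were measured. Their mean per array was 12.34 to 12.38 at ZT8 and 12.32 to 12.62 at ZT4, and the arrays overlapped.

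**Figure D4:**
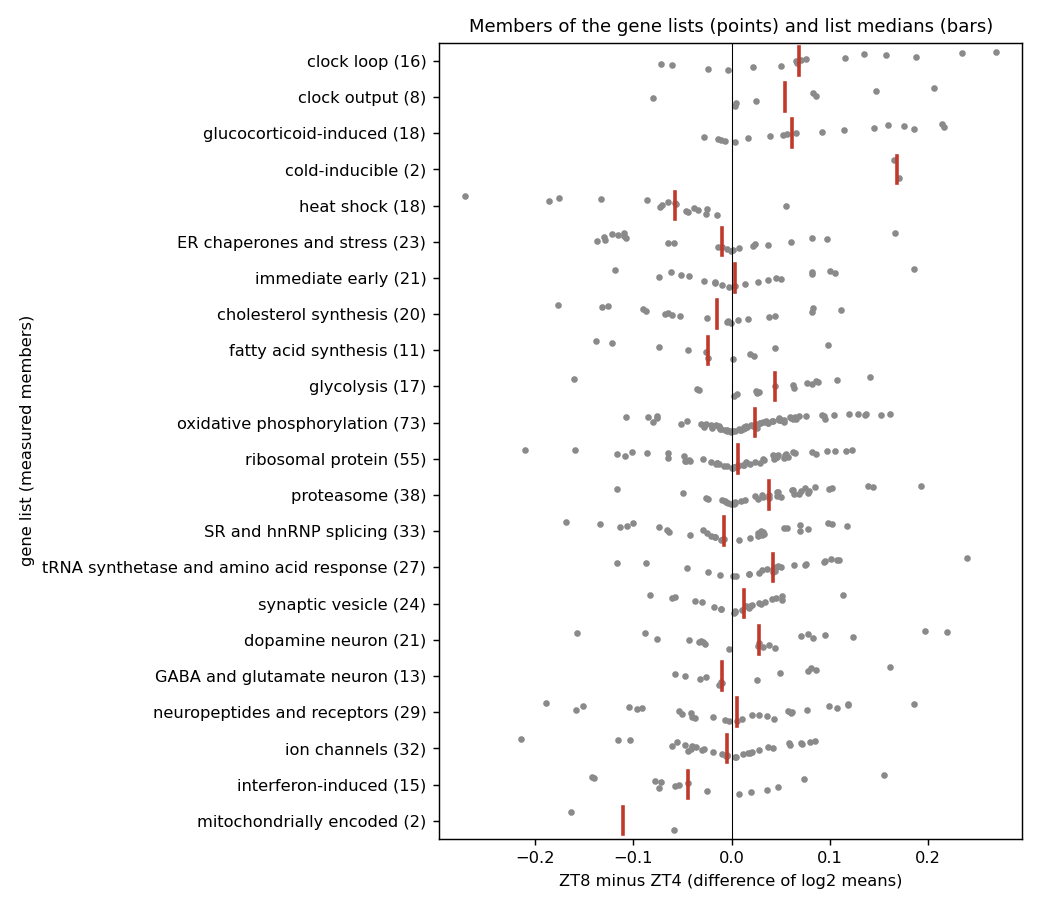
Difference between the ZT8 and ZT4 means in log2 units (horizontal axis) for each measured member (grey points) of 22 gene lists (rows, with the number measured), and the list median (red bar). Clock loop, clock output, glucocorticoid-induced and cold-inducible genes have medians of 0.05 to 0.17, glycolysis, proteasome and transfer RNA synthetase genes of 0.04, heat shock genes one of -0.06 and the 2 mitochondrially encoded genes one of -0.11, and no single gene was called.

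Neuronal genes showed little. Th, which encodes the rate-limiting enzyme of dopamine synthesis, was at 7.86, 7.92, 7.84 and 7.68 at ZT8, against 7.51, 7.61, 7.62 and 8.06 at ZT4. The highest of the 8 arrays was ZT4 replicate 4, and the difference was 0.12 ± 0.14, with a 95% interval from -0.16 to 0.41. Of 21 dopamine neuron genes 12 were above 0 and 9 below. None of the 21 was at an unadjusted p under 0.05 in limma, and 1, Gch1, had no overlap, beside 1.75% of all transcripts. Gch1, the first enzyme of tetrahydrobiopterin synthesis, was lower at 5.45, 5.46, 5.36 and 5.46 in ZT8 arrays and 5.67, 5.63, 5.51 and 5.54 in ZT4 arrays. Its level was below the median of 6.76, and its SD was 0.21 to 0.31 at the times other than ZT4 and ZT8. Oprk1, the kappa opioid receptor, differed by -0.19 (unadjusted p = 0.035, limma) and Grin2a, an NMDA receptor subunit, by -0.21 (unadjusted p = 0.0225, limma), both with an adjusted p of 1. Synaptic vesicle genes had a median of 0.01 over 24 genes and 15 of 32 ion channel genes were above 0.

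Markers of the cell types in the punch overlapped between both times. All 11 dopamine neuron markers were present on the array, with a mean level of 7.41 to 7.57 at ZT8 and 7.34 to 7.59 at ZT4. Mean levels of markers of astrocytes were 8.72 to 8.83 at ZT8 and 8.73 to 8.82 at ZT4, and those of oligodendrocytes 8.93 to 9.15 at ZT8 and 8.96 to 9.10 at ZT4. Markers of 15 cell types and neighbouring regions were examined, and in each the arrays of ZT8 and ZT4 overlapped. Some leaned to 1 side, with all 6 thalamus markers above 0 (median 0.04) and 8 of 10 markers of the meninges below 0 (median -0.05), and their part in the other differences was not tested. Of single markers, Fabp7, the brain fatty acid-binding protein of astrocytes, was lower at ZT8 without overlap, at 8.56, 8.65, 8.41 and 8.60, against 8.81, 8.83, 8.79 and 8.91 at ZT4. Of the 12 astrocyte markers 6 were above 0 and 6 below, with a median of 0.003. Only 1 of the 12, Fabp7, had no overlap, beside 1.75% of all transcripts. The Fabp7 difference was -0.28 ± 0.19 (unadjusted p = 0.158, limma), with an SD of 0.10 at ZT8, 0.06 at ZT4 and 0.64 at ZT0. Without ZT0 replicate 4, an array that stood apart, the unadjusted p from limma was 0.0291 and the adjusted p was 1. The microglial complement gene C1qb differed by 0.17 at an unadjusted p of 0.0276 in limma. It was not typical of its list, since 4 of the 11 measured microglia markers were above 0 and 7 below, with a median of -0.02.

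Among arrays, correlations within ZT8 were 0.990 to 0.995, within ZT4 0.988 to 0.994 and between the times 0.989 to 0.994 across transcripts. ZT4 replicate 4 had 185 transcripts more than 1.5-fold from the mean of the other 3 arrays at its time, the other 3 ZT4 arrays 41 to 65 and the ZT8 arrays 9 to 55. At ZT0, replicate 4 stood apart with 2047 such transcripts, and without this array 503 transcripts were at an unadjusted p under 0.05 between ZT8 and ZT4 and 0 were called.

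Compared with the other 4-h steps of the day, the mid-rest step had the lowest value of each of 3 measures when all 24 arrays were used as deposited. Its 350 transcripts at an unadjusted p under 0.05 were the fewest, beside 576 for ZT4 against ZT0, 819 for ZT12 against ZT8, 1071 for ZT16 against ZT12, 905 (3.87%) for ZT20 against ZT16 and 2094 for ZT0 against ZT20. Its median absolute difference, 0.052, was the smallest of the 6 (0.056 to 0.076 in the others), and it alone had no transcript beyond 1.5-fold, where the others had 3 to 12. In each of the 6 steps 0 transcripts were called after adjustment. Without ZT0 replicate 4 the counts were 503 for ZT8 against ZT4, 1116 for ZT4 against ZT0 and 1057 to 3635 in the others, and 1 transcript was called, in ZT0 against ZT20. Over 27 settings (2 scalings, array weights and each of the 24 arrays left out), chosen after seeing the data, the mid-rest count was the lowest in 26, its median absolute difference in 23 and its count beyond 1.5-fold in all 27, ties included. The exception for the count was array weights, with 1385 for ZT8 against ZT4, beside 1199 for ZT4 against ZT0 and 1370 for ZT20 against ZT16. For the median the exceptions left out ZT4 replicate 3 or 4 or ZT8 replicate 2 or 4. In 4 of the 27 settings another step had calls after adjustment, while the mid-rest step had none in any. The most were 17, in ZT0 against ZT20 without ZT0 replicate 2. Neighbouring steps share arrays and all steps share 1 estimate of the spread, so these counts are given as a description.

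**Figure D5:**
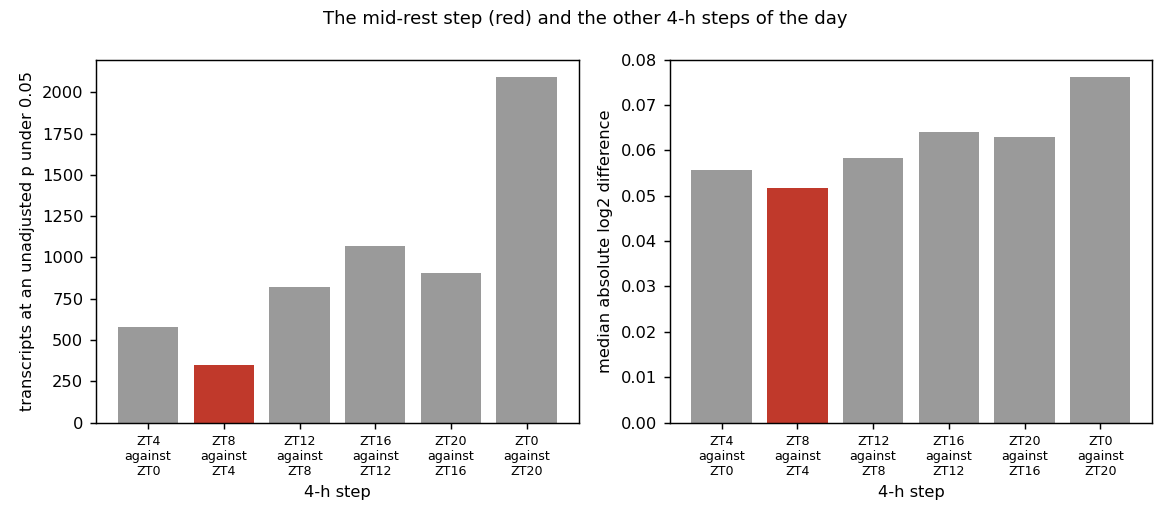
Transcripts at an unadjusted p under 0.05 (left panel, count) and the median absolute log2 difference (right panel) for the 6 steps of 4 h, from ZT4 against ZT0 to ZT0 against ZT20, with the mid-rest step in red. The mid-rest step has the lowest bar in both panels (350 transcripts and 0.052).

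The mid-activity step, ZT20 against ZT16, lies 12 h away and shares no array with the mid-rest step, so the difference between both steps was tested directly. Of 23410 transcripts 0 were called (0%), and 578 (2.47%) were at an unadjusted p under 0.05. The leading genes named below were chosen for the ZT8 minus ZT4 difference, which is part of this contrast. Their sizes and p are therefore a description. Nr1d1 was 0.27 higher at ZT8 than at ZT4, while its means were 8.19 at ZT20 and 8.35 at ZT16, and the steps differed by 0.43 ± 0.12 (unadjusted p = 0.00141, adjusted p = 1, limma). Slc7a5 (0.39 ± 0.11), Bhlhe40 (0.37 ± 0.11), Dbp (0.35 ± 0.12), Ciart (0.45 ± 0.15) and Cirbp (0.29 ± 0.10) differed between the steps in the same direction, all with an adjusted p of 1. At the second Ciart probe set the steps differed by 0.23 ± 0.19 (unadjusted p = 0.241, limma). Id2 differed by -0.49 ± 0.14 between the steps, with means of 8.04 at ZT20 and 7.92 at ZT16. For Aph1a the steps differed by 0.21 ± 0.10, for Zbtb16 by 0.11 ± 0.10 and for Th by 0.05 ± 0.19.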

How the data were processed

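VTA punches of 24 male mice were hybridised to Mouse Gene 1.0 ST arrays, 1 array per punch. The values are on the log2 scale, made by the authors with RMA in R 2.13.1, and were used as deposited (2.27 to 14.1). All columns were assigned to a sample. Time points follow the sample labels, 4 h apart, although the methods state a different interval. Of 35556 probe sets, 23410 have a gene in the array annotation (21789 have 1 gene, 1621 several) and were tested, and 12146 have none. Names were updated for 21698 through RefSeq (GRCm38.p6), from which start windows and miRNA sequences also come. For each of 19938 genes the probe set with the highest level stood for the gene in lists.

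limma 3.58.1 in R 4.3.3 fitted the 6 time points as groups over 24 arrays, with the contrasts ZT8 minus ZT4 and that step minus ZT20 minus ZT16, and Benjamini-Hochberg adjustment over all transcripts. Errors are moderated standard errors unless SD is stated. The code of the fit was tested on simulated data with independent noise, without the shared deviations of single arrays seen in these data. Precision is limited by the number of arrays. Of 712 list names 622 were measured. Named genes are the 12 in each direction with the smallest p above the median level, all clock genes, the 3 members of each other list with the smallest p, and Th, and others are described with their lists. These members, lists and rules were chosen with earlier results of these data known. Start windows were found for 17 of the 24 leading genes. Alternatives were another scaling, array weights, a robust fit, other sets of probe sets or arrays, the methods' t-test (named there for other data), the replicate block and leaving out each array. Replicate numbers did not pair the arrays. Plots used matplotlib 3.10.9.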

Additional observations from a re-analysis of the deposited data

Results flagged for a closer look

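Among 74 genes described in the text (the 24 leading genes, the 22 other clock genes and 28 more), each with 4 arrays at ZT8 and 4 at ZT4, 148 groups of 4 were examined for a single array far from the other 3. Such an array was found in 11 groups, where chance gives about 1 in 20. Id2 at ZT8 was 8.20 in replicate 2, against 8.04 to 8.05 in the other 3, which left this array still below all ZT4 arrays. Josd1 at ZT8 was 7.41 in replicate 1, against 6.99 to 7.03 in the others, and this array alone overlapped with ZT4. Per3 at ZT8 was 6.73 in replicate 3, against 6.61 to 6.63. Rbm3 at ZT8 was 9.17 in replicate 3, against 9.66 to 9.73 in the other 3, so that its difference from ZT4 was lowered by 1 array. Gch1 at ZT8 was 5.36 in replicate 3, against 5.45 to 5.46, and Hspa8 at ZT8 was 11.8 in replicate 4, against 11.7 in the other 3. Mt1 at ZT8 was 9.10 in replicate 2, against 8.96 to 8.99. Sgk1 at ZT8 was 6.73 in replicate 1, against 7.02 to 7.04. Csnk1d at ZT4 was 7.83 in replicate 2, against 8.02 to 8.05. C1qb at ZT4 was 7.11 in replicate 4, against 6.91 to 6.94, and Traf3ip3 at ZT4 was 5.59 in replicate 1, against 5.68 to 5.70.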

How the results depend on the processing

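No transcript was called for ZT8 against ZT4 under any of 19 settings, or for its difference from the mid-activity step under 17 of these and 8 more, chosen after seeing the data, that left out each ZT20 and ZT16 array. The count at an unadjusted p under 0.05 (350) was 639 with the 8 arrays only, 1385 with array weights, 735 over all probe sets (312 higher, 423 lower), 121 above the median level, 684 with the methods' t-test on the 8 arrays, 375 with the replicate block (0 called) and 294 to 650 with 1 array left out. Without ZT4 replicate 2 the direction turned, with 132 higher and 162 lower. For the difference of the steps (578) it was 1029 with array weights, 1048 over all probe sets, 196 above the median level and 518 to 824 with 1 array left out. Among list members (13) it was 32 with array weights, 24 with the t-test and 6 to 17 with 1 array left out (6 without ZT4 replicate 2). Groups without overlap (409) numbered 722 over all probe sets, 156 above the median level and, with 3 arrays on one side by construction, 785 to 1518 with 1 array left out.

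Of 1390 values for 74 genes (the 24 leading genes, the 22 other clock genes and 28 further genes described in the text), 1368 kept their direction and 22 changed it. All 22 were in 9 genes, and none was in the 24 leading genes. The leading genes were chosen for this difference, which favours a kept direction, so this is no measure of their stability. Pdk4 was -0.00762 after quantile normalisation, -0.00804 after centring and -0.0154 with array weights, and Wee1 was -0.00465, -0.00685 and -0.0139 under these settings. With 1 array left out the ranges that crossed 0 were -0.0303 to 0.0271 for Arntl, -0.161 to 0.0756 for Bhlhe41, -0.0164 to 0.120 for Fkbp5, -0.0680 to 0.130 for Klf10, -0.137 to 0.00356 for Nfil3, -0.0510 to 0.0418 for Pdk4, -0.000245 to 0.0420 for Rora, -0.0600 to 0.0161 for Tsc22d3 and -0.0430 to 0.0454 for Wee1. The lowest adjusted p of a leading gene under any setting was 0.249 (Id2). The causes were not tested. Replicate numbers did not pair the arrays (correlations of same-numbered deviations -0.29 to 0.02). By the intervals of single transcripts, with 4 arrays a time, changes of 1.2-fold or more lay outside the interval for 57.4% of transcripts and not for the rest. The adjusted test reached less far, since the largest difference, 1.42-fold, was not called.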

Other observations

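Below the median level, the transcripts with the smallest p in each direction were the microRNA gene Mir34a, the lipoyl transferase gene Lipt2 and the olfactory receptor gene Olfr508 on the higher side, and Traf3ip3, Mug1 and Afg1l on the lower side. They were chosen by p after the values were seen, and all had an adjusted p of 1 in limma. Mir34a had log2 values of 4.62, 4.72, 4.52 and 4.79 at ZT8, against 4.30, 4.35, 4.36 and 4.32 at ZT4, a difference of 0.33 ± 0.09 without overlap, at a low signal. Its mature products are printed from RefSeq (GRCm38.p6) with the seed, bases 2 to 8, in capitals, and lie on the plus strand at chr4:150068473-150068494 (5p) and chr4:150068517-150068537 (3p).
mmu-miR-34a-5p: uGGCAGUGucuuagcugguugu
mmu-miR-34a-3p: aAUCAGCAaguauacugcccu

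Over the whole class, 291 microRNA genes had a median difference of 0.01, with 4 higher and 2 lower at an unadjusted p under 0.05 (2.06%). Olfactory and vomeronasal receptor genes, 1194 in all, had 16 higher and 9 lower (2.09%), and 51 snoRNA genes 1 higher and 2 lower (5.88%). The share was 1.50% over all transcripts and 2.11% over those at or below the median level, to which most genes of these classes belong. Lipt2 was at 6.18, 6.35, 6.21 and 6.25 at ZT8, against 6.11, 5.88, 5.91 and 5.81 at ZT4. Traf3ip3 was at 5.35, 5.29, 5.49 and 5.43 at ZT8, against 5.59, 5.69, 5.70 and 5.68 at ZT4. Of the 12146 probe sets without a gene, 409 (3.37%) were at an unadjusted p under 0.05, 109 higher and 300 lower at ZT8, and 0 were called, with a smallest adjusted p of 0.606 in limma. Their median over these probe sets was 6.06 to 6.11 in the ZT8 arrays and 6.11 to 6.12 in the ZT4 arrays.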
